A study of Mus musculus with 24 samples.

Results

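The mitochondrial genome of the mouse is a small circle whose genes were read here from RNA of eGFP-positive cells sorted from embryonic pancreas. All rows of the deposited count table whose gene name starts with mt- were taken, which gave 35 of 40173 genes. They were 13 protein genes, 2 ribosomal RNA (rRNA) genes and 20 transfer RNA (tRNA) genes. The genes mt-Td and mt-Ts1 were not analysed here.

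As background, the mitochondrial genome is transcribed from both strands as long precursors. The tRNAs interspersed between the other genes are cut out by dedicated nucleases, and this frees the rRNAs and the messenger RNAs. The messengers code for subunits of respiratory complexes I, III, IV and V. The remaining subunits and the protein factors that copy, transcribe and translate this genome are encoded in the nucleus. Mitochondria of pancreatic islet cells are known for coupling the burning of glucose to insulin release.

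Ngn3-eGFP mice carry eGFP in place of the coding region of Ngn3 (Neurog3), a transcription factor required for the endocrine fate of pancreatic progenitors, so sorted cells carry an allele without it. Dams of 6 weeks carrying Ngn3eGFP/+ received high-fat diet (HFD), low-protein diet (LPD) or normal diet (ND) for 2 weeks, were mated with Ngn3eGFP/+ males kept on control diet, and stayed on their diet until embryos were taken at E15.5. The groups are called by their titles: Mutant HFD (3 libraries), Control HFD (3), Mutant LPD (4), Control LPD (4), Mutant ND (4) and Control ND (3), 21 libraries in all. Series text and labels conflict on which is which: the genotype field gives Ngn3eGFP/+ for Mutant and Ngn3eGFP/eGFP for Control, while the series' text describes Ngn3eGFP/eGFP cells as the uncommitted ones. Neurog3 levels, in CPM (counts scaled to a common library total), were 6.13 to 23.2 CPM in the 11 Mutant and 99.0 to 276 CPM in the 10 Control libraries. The low values thus lay in the libraries whose genotype entry keeps an intact allele. Control ND 1, which its description gives as of mixed genotype, and 2 hypothalamic libraries were in no group. Embryos of both sexes were pooled, and no label says that libraries of a group came from separate litters or sorts, so the tests measure the spread between libraries, which may be technical.

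The libraries held 17922240 to 44688814 counts each. Of these counts, 9.21% to 66.9% fell in Gm26917, a noncoding RNA gene, with Mutant ND 2 the highest. Duplicate reads, as the sequencing statistics give them, made up 72.2% to 79.4% of reads in Mutant ND 2, Mutant ND 3 and Control ND 2, against 37.7% to 65.5% in the other 18 libraries. The summed level of 8 acinar marker genes was 22743 to 24076 CPM in Mutant HFD, 17747 to 22618 in Mutant LPD and 5714 to 17680.0 in Mutant ND, and 16139 to 19669 in Control HFD, 4829 to 12133 in Control LPD and 4576 to 7039.8 in Control ND. Endocrine markers (10 genes) summed to 8.32 to 305 CPM in Mutant and 1589 to 7677 CPM in Control libraries. Mesenchymal markers (8 genes) summed to 270.1 to 832 CPM in Mutant HFD, 414 to 1225 in Mutant LPD and 1197 to 3797 in Mutant ND, and to 358 to 1428 in Control HFD, 415 to 1198 in Control LPD and 960.0 to 1973 in Control ND. Pancreatic epithelial markers (8 genes, among them Pdx1 and Epcam) were present in all 21 libraries, at 1003 to 3554 CPM. In bulk libraries, fewer cells of a type and less RNA per cell cannot be told apart.

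Mitochondrially encoded RNA made up a larger share of the counts in HFD libraries, and in Mutant LPD libraries, than in ND libraries of the same genotype, while Mutant and Control libraries on the same diet mostly overlapped. The 13 protein genes took 0.749, 0.694 and 0.755% of counts in Mutant HFD, 0.704, 0.7103, 0.846 and 0.7596% in Mutant LPD and 0.588, 0.0226, 0.229 and 0.487% in Mutant ND libraries. In Control libraries they took 0.894, 0.857 and 0.673% on HFD, 0.545, 0.5403, 0.481 and 0.783% on LPD and 0.216, 0.612 and 0.554% on ND. Every HFD library lay above every ND library of its genotype, every Mutant LPD library lay above every Mutant ND library, and Control LPD overlapped Control ND.

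**Figure D1:**
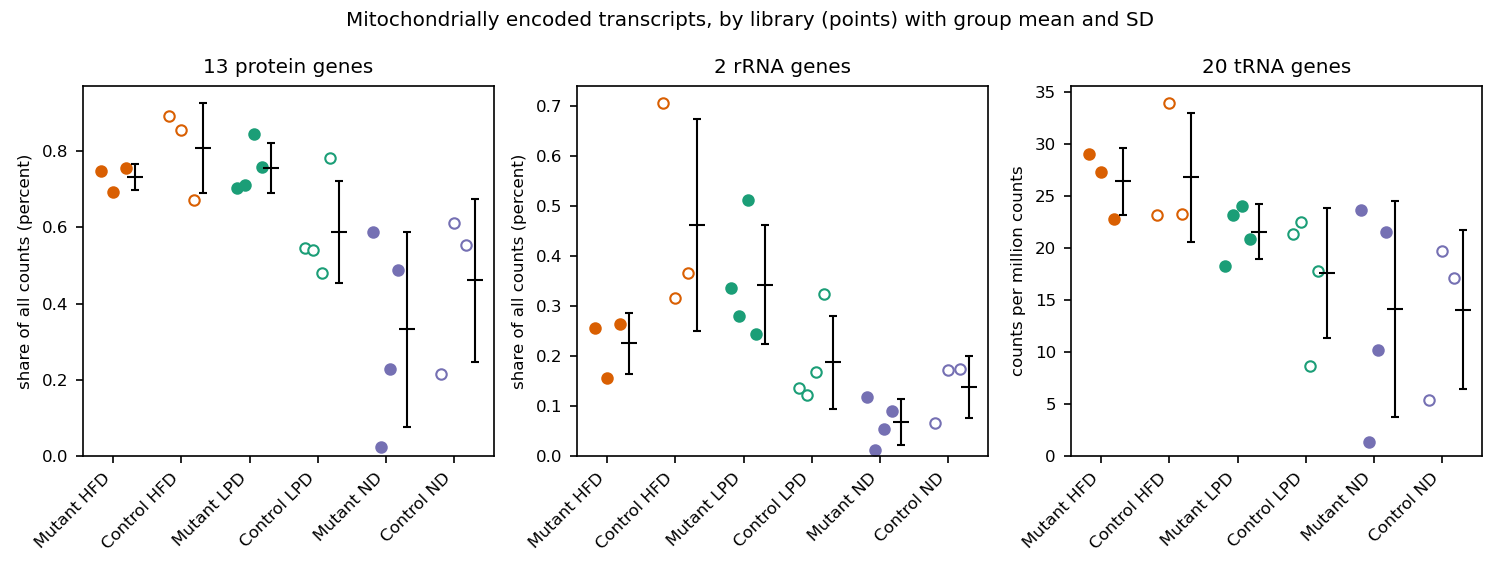
Share of all counts taken by the mt- protein genes, rRNA genes (both percent) and tRNA genes (CPM) in each of the 21 libraries, with filled points for Mutant, open points for Control, and the group mean with SD in black. The ND libraries reach down to 0.0226% for protein genes, and no HFD library lies below 0.673%.

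The means of the protein-gene share were 0.733 ± 0.0338% in Mutant HFD (SD, n = 3) and 0.332 ± 0.256% in Mutant ND (n = 4), and the exact permutation test gave p = 0.0571, two-sided, the smallest that 3 against 4 allows. Mutant LPD averaged 0.755 ± 0.0655% (SD, n = 4), with an exact permutation p = 0.0286 against Mutant ND, again the smallest possible. Control HFD averaged 0.808 ± 0.119% and Control ND 0.461 ± 0.214% (SD, n = 3 each, exact permutation p = 0.1, the smallest possible). After adjustment over the 7 comparisons of this class (3 of genotype, 4 of diet) all 3 stood at 0.2, so none passed 0.05. The groups of one genotype share their ND libraries, so the HFD and LPD comparisons are not independent of each other.

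Together the rRNA genes took 0.256, 0.155 and 0.264% of counts in Mutant HFD, 0.335, 0.279, 0.512 and 0.244% in Mutant LPD and 0.117, 0.0116, 0.0525 and 0.0891% in Mutant ND libraries. In Control libraries the rRNA genes took 0.705, 0.315 and 0.366% on HFD, 0.135, 0.121, 0.168 and 0.324% on LPD and 0.0659, 0.172 and 0.174% on ND. Control HFD 1 stood highest of all 21 and Mutant ND 2 lowest. The mean share was 5.07 times as high in Mutant LPD as in Mutant ND, 3.33 times as high in Mutant HFD as in Mutant ND, and 3.37 times as high in Control HFD as in Control ND. The groups did not overlap in these 3 comparisons, nor between Mutant HFD and Control HFD, where the Mutant mean was lower (0.225 ± 0.0608% against 0.462 ± 0.212%, SD, n = 3 each). The adjusted exact permutation p was 0.14 for each of them. RNA had been depleted of rRNA before the libraries were made, with a kit whose probes also target the mitochondrial rRNAs, so these counts are what depletion left, and a difference in rRNA and a difference in depletion cannot be told apart.

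The tRNA genes held 12824 counts over the 21 libraries, against 3937549 for the protein genes and 1502605 for the rRNA genes. They amounted to 29.1, 27.4 and 22.8 CPM in Mutant HFD, 18.2, 23.2, 24.1 and 20.9 CPM in Mutant LPD and 23.6, 1.297, 10.2 and 21.5 CPM in Mutant ND libraries. In Control libraries the tRNA genes had 23.2, 33.96 and 23.3 CPM on HFD, 21.4, 22.5, 8.68 and 17.8 CPM on LPD and 5.34, 19.7 and 17.1 CPM on ND. Only Control HFD and Control ND did not overlap (adjusted exact permutation p = 0.4 over 7 comparisons).

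The share of the protein genes was low where duplicate reads were frequent. Among the 7 ND libraries, both genotypes together, it fell with the percent of duplicate reads (Pearson r = -0.93, permutation p = 0.00357, Spearman rho = -0.96, permutation p = 0.00278). Over the 5 left without the 2 libraries farthest from the median duplicate percent r was -0.93. Those 2 were Control ND 3 (48.0%) and Control ND 4 (48.15%). The 3 libraries of over 70% duplicates stayed in, so this step cannot show how far the coefficient rests on them. Among the 14 HFD and LPD libraries the relation did not pass (r = -0.40, permutation p = 0.178; rho = -0.35, permutation p = 0.231), with r = -0.25 without the 2 farthest. Adjusted over the 4 coefficients, both p-values stood at 0.00714 for ND and 0.231 for HFD and LPD. No pooled coefficient is given, since the 3 ND libraries of over 70% duplicates stand apart. These 3 also had the largest Gm26917 shares of the 21, 32.7% to 66.9% of counts. The other 18 had 9.21% to 18.7%. Gm26917 counts are part of the total, so a large Gm26917 share lowers the percent taken by other genes. The part of Gm26917 in the relation with duplicates was not tested.

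**Figure D2:**
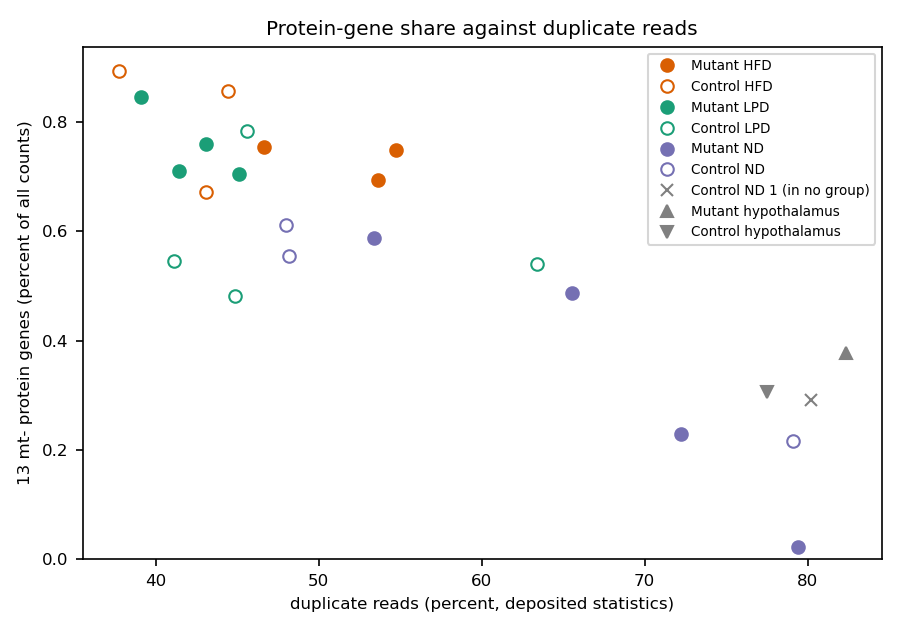
Percent of all counts in the 13 mt- protein genes against the percent of duplicate reads in the deposited statistics, with 1 point per library, colour for diet, and filled points for Mutant and open points for Control. The 3 ND libraries of over 70% duplicates hold the lowest shares of the 21 grouped libraries, 0.0226%, 0.216% and 0.229%, and the grey marks are the 3 libraries outside the groups.

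The library numbers in the labels were at most 22 on HFD and LPD and at least 25 in 5 of the 7 libraries on ND, so number and diet are largely confounded. The 2 ND libraries with lower numbers, Mutant ND 1 and Control ND 4, had protein-gene shares of 0.588% and 0.554%, below all 6 HFD libraries and all 4 Mutant LPD libraries and above 3 of the 4 Control LPD libraries. Their duplicate percents, 53.4% and 48.2%, lay within the range of the HFD and LPD libraries. The values with duplicates or library number in the model stand beside the counts of genes called.

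Within the protein genes, 7 carried nearly all counts and 6 carried 0.268% of them. Per kilobase, in CPM scaled by trimmed mean of M-values (TMM), the median over 21 libraries was 1491 for mt-Co1 (complex IV), 999.8 for mt-Cytb (complex III), 853 for mt-Nd1, 624 for mt-Nd5, 471 for mt-Nd2, 289.9 for mt-Nd6 and 271 for mt-Nd4 (all 5 complex I). The same median was 10.1 for mt-Co2 and 4.79 for mt-Co3 (complex IV), 6.98 for mt-Atp6 and 0.728 for mt-Atp8 (complex V, ATP synthase), and 1.03 for mt-Nd4l and 0.435 for mt-Nd3 (complex I). As background, all of these genes but mt-Nd6 lie on the same precursor.

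The protein genes with low counts were, with the exception of mt-Atp8, those whose sequence lies almost whole in annotated nuclear transcripts too. Of all 30-base windows, 100% of mt-Co2, 99.9% of mt-Co3, 99.5% of mt-Atp6, 98.9% of mt-Nd4l and 98.1% of mt-Nd3 also occurred in an annotated nuclear transcript. For the better counted genes the share was 64.8% in mt-Co1, 62.8% in mt-Nd4, 7.35% to 17.5% in mt-Cytb, mt-Nd6, mt-Nd2 and mt-Nd5, and 0% in mt-Nd1. A run of pseudogenes on chromosome 1 (chr1:24611535-24616197, GRCm38) holds nearly whole copies of the 5 genes first named and partial copies of mt-Nd4 and mt-Co1. Most of the shared windows of mt-Co1 (706 of 983) lay in another pseudogene, Gm13340, and the 142 of mt-Nd2 in Gm13339. Over their aligned length Gm28661 (copy of mt-Co2), Gm10925 (mt-Atp6), Gm28437 (mt-Co3), Gm10222 (mt-Nd4l) and Gm28439 (mt-Nd4) had 0 differing bases, Gm28438 (mt-Nd3) had 1 in 345 and Gm29216 (mt-Co1) had 6 in 492. The windows below are shown because they are what an aligner has to separate the copies by. All are read 5′ to 3′ from GENCODE vM21 transcripts of GRCm38, 90 bases each, and capitals mark the bases that differ within a pair.

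mt-Co2 (chrM, bases 1 to 90 of the transcript): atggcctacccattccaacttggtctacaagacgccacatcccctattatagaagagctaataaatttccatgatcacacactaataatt
Gm28661 (chr1, bases 1 to 90): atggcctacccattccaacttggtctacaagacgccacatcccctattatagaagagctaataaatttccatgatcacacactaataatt
mt-Nd3 (chrM, bases 1 to 90): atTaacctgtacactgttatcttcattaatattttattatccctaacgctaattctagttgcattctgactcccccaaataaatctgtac
Gm28438 (chr1, bases 1 to 90): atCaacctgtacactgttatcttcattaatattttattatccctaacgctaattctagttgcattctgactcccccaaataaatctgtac
mt-Co1 (chrM, bases 1054 to 1143): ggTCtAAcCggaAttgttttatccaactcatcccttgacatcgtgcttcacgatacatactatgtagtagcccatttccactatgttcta
Gm29216 (chr1, bases 1 to 90): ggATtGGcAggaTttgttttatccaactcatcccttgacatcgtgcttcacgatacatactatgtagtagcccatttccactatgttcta

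The copies were counted too. Over the 21 libraries Gm28661 had 5134 counts and mt-Co2 4502, Gm28437 had 4982 and mt-Co3 2607, and Gm10925 had 4886 and mt-Atp6 2981. Gm28438 had 2538 counts against 126 for mt-Nd3, and Gm10222 had 1175 against 195 for mt-Nd4l. The sources used here do not give how the authors treated reads that match several places, and reads of an identical pair cannot be assigned to either member, so the values of mt-Co2, mt-Co3, mt-Atp6, mt-Nd3 and mt-Nd4l are uncertain and are no measure of these messengers' abundance. The shared stretches of mt-Co1 and mt-Nd4 carry the same uncertainty, though Gm29216 had 2108 counts against 1469852 for mt-Co1, and Gm28439 1281 against 238050 for mt-Nd4. mt-Atp8, with 127 counts in all, shared 8% of its windows with Gm10925, and no other annotated transcript covered it further. Only annotated transcripts were searched. Copies in the stretches between these pseudogenes, as between Gm10925 and Gm28661, would thus not be found, for mt-Atp8 or for tRNA genes.

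**Figure D3:**
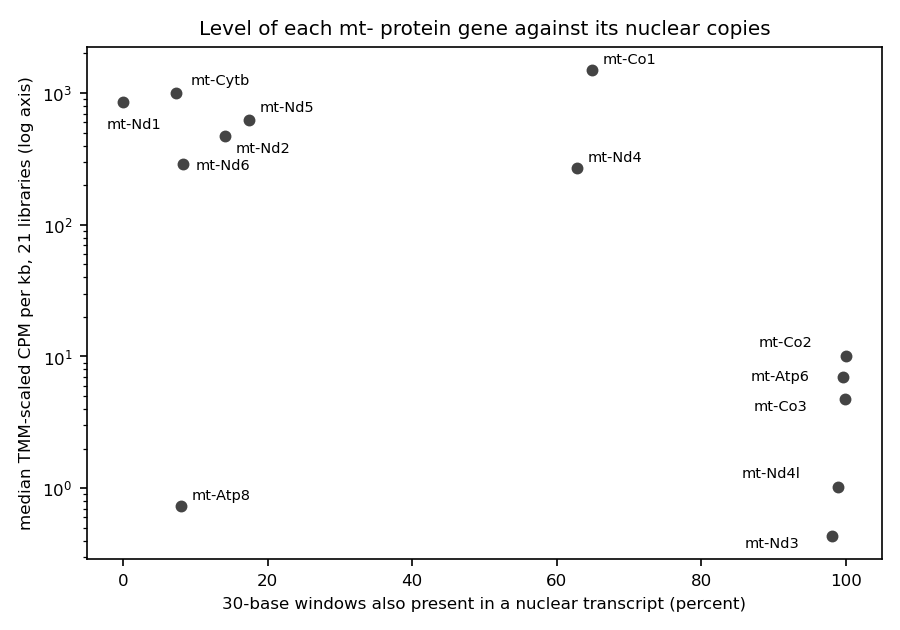
Median level of each of the 13 mt- protein genes over 21 libraries (TMM-scaled CPM per kb, log axis) against the percent of its 30-base windows that also occur in an annotated nuclear transcript. The 5 genes at 98.1% or more lie between 0.435 and 10.1, mt-Atp8 lies at 0.728 with 8%, and the other 7 lie between 271 and 1491.

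Levels of single genes are given in TMM-scaled CPM, in library order within each group. mt-Co1, the core catalytic subunit of cytochrome c oxidase, was the most counted protein gene. mt-Co1 had 2858, 2714 and 2833 TMM-scaled CPM in Mutant HFD, 2469.8, 2652, 2584 and 2563 in Mutant LPD and 2352, 103, 1358 and 2229 in Mutant ND libraries. In Control libraries mt-Co1 had 2589.5, 2691 and 2255 TMM-scaled CPM on HFD, 1733, 2304, 1667 and 2276 on LPD and 954, 2047 and 1857 on ND. Mutant HFD and Mutant LPD libraries lay above all Mutant ND libraries, Control HFD lay above Control ND, and Mutant ND 2 was lowest. On HFD and on LPD the Mutant libraries also lay above the Control libraries of the same diet under TMM scaling. In CPM without this scaling they overlapped on both diets. mt-Cytb encodes cytochrome b, the mitochondrially made subunit of complex III. mt-Cytb had 1336, 1144 and 1446 TMM-scaled CPM in Mutant HFD, 1337, 1201, 1358 and 1266 in Mutant LPD and 767, 30.7, 395 and 668 in Mutant ND libraries. In Control libraries mt-Cytb had 1673, 1275 and 1235 TMM-scaled CPM on HFD, 611, 678, 905 and 1367 on LPD and 354, 801 and 757 on ND. Each HFD library and each Mutant LPD library exceeded every ND library of its genotype.

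Among complex I genes, mt-Nd1 shared no 30-base window with an annotated nuclear transcript. mt-Nd1 had 949, 817 and 957 TMM-scaled CPM in Mutant HFD, 913, 869, 970.1 and 847 in Mutant LPD and 590, 38.8, 346 and 597 in Mutant ND libraries. In Control libraries mt-Nd1 had 1059, 867 and 818 TMM-scaled CPM on HFD, 421, 541, 542 and 911 on LPD and 258, 547 and 521 on ND. mt-Nd1 was lowest in Mutant ND 2, and the HFD and ND libraries of each genotype did not overlap. mt-Nd2 and mt-Nd5, like mt-Nd1, encode membrane subunits of complex I. mt-Nd2 had 612, 532 and 587 TMM-scaled CPM in Mutant HFD, 576, 541, 574 and 489 in Mutant LPD and 339.6, 111, 149 and 287 in Mutant ND libraries. In Control libraries mt-Nd2 had 768, 575 and 539 TMM-scaled CPM on HFD, 243, 314, 315 and 546 on LPD and 167, 318 and 296 on ND. All Mutant HFD and Mutant LPD values of mt-Nd2 exceeded the Mutant ND values, and Control HFD exceeded Control ND. mt-Nd5 had 1185, 1139 and 1336 TMM-scaled CPM in Mutant HFD, 1202, 1160.1, 1308 and 1491 in Mutant LPD and 764, 250.3, 473 and 728 in Mutant ND libraries. In Control libraries mt-Nd5 had 1548, 1324 and 1213 TMM-scaled CPM on HFD, 716, 769.8, 859.9 and 1466 on LPD and 445, 828 and 768 on ND. The same order held for mt-Nd5.

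mt-Nd6, another membrane subunit of complex I, is the only protein gene on the opposite (minus) strand. mt-Nd6 had 153, 150.5 and 193 TMM-scaled CPM in Mutant HFD, 189.5, 153, 219.8 and 211 in Mutant LPD and 86.8, 45.97, 74.4 and 97.4 in Mutant ND libraries. In Control libraries mt-Nd6 had 265, 188 and 209 TMM-scaled CPM on HFD, 87.5, 77.4, 132 and 229 on LPD and 83.1, 121 and 94.3 on ND. HFD and ND libraries did not overlap in either genotype for mt-Nd6, nor did Mutant LPD and Mutant ND. The libraries were made strand-specific, per the labels' protocols, but the sources used here do not give the strand setting of the counting, so reads of the opposite strand cannot be told apart from mt-Nd6. mt-Atp6 encodes a proton-channel subunit of ATP synthase. mt-Atp6 had 5.12, 5.98 and 6.25 TMM-scaled CPM in Mutant HFD, 4.93, 6.08, 6.36 and 6.58 in Mutant LPD and 4.36, 0.117, 1.67 and 3.12 in Mutant ND libraries. In Control libraries mt-Atp6 had 5.33, 4.93 and 3.96 TMM-scaled CPM on HFD, 2.62, 4.75, 2.95 and 6.16 on LPD and 1.66, 4.04 and 4.12 on ND. Mutant HFD and Mutant LPD lay above Mutant ND, and Control HFD overlapped Control ND; the reservation on copies given above applies.

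Of the rRNAs, mt-Rnr2 (large subunit) held 95.6% of the rRNA counts and mt-Rnr1 (small subunit) the rest, and, as background, both come from the same precursor. Per kilobase their medians were 980.2 and 81.6 TMM-scaled CPM. mt-Rnr2 had 2490.4, 1478 and 2623 TMM-scaled CPM in Mutant HFD, 3258, 2651, 4311 and 2298 in Mutant LPD and 981, 216, 613 and 835 in Mutant ND libraries. In Control libraries mt-Rnr2 had 6457, 2632 and 3478 TMM-scaled CPM on HFD, 966, 1066, 1551 and 2916 on LPD and 650.1, 1322 and 1360.5 on ND. Control HFD 1 and Mutant LPD 3 were highest for mt-Rnr2, and Mutant ND 2 lowest. mt-Rnr1 had 89.01, 62.02 and 126 TMM-scaled CPM in Mutant HFD, 147, 107, 221 and 71.3 in Mutant LPD and 52.05, 89.02, 55.4 and 49.5 in Mutant ND libraries. In Control libraries mt-Rnr1 had 262, 77.8 and 175 TMM-scaled CPM on HFD, 36.5, 42.6, 111 and 124 on LPD and 77.03, 77.96 and 74.5 on ND. For mt-Rnr1 the groups overlapped in all 7 comparisons of genotype or diet. Mutant ND 2 had 89.02 and the other 3 Mutant ND libraries had 49.5 to 55.4. In CPM without TMM scaling this order was reversed, with 33.9 in Mutant ND 2 and 43.6 to 58.9 in the other 3.

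The tRNA counts lay mostly in 3 genes of the minus strand. The 7 minus-strand genes held 83.2% of tRNA counts and the 13 plus-strand genes the rest, and 77.1% came from the minus-strand genes mt-Tp (proline), mt-Tc (cysteine) and mt-Tn (asparagine). Their sequences are shown because these 3 genes carried most tRNA counts. Reads from the opposite strand cannot be told apart from these genes' own where strand was not used in counting. The sequences are read from GENCODE vM21 (GRCm38, chrM, minus strand), 5′ to 3′ as transcribed, and capitals mark the anticodon.

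mt-Tp (chrM:15356-15422): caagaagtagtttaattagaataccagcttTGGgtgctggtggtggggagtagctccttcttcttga
mt-Tc (chrM:5192-5257): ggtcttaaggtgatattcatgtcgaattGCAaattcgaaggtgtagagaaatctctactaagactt
mt-Tn (chrM:5089-5159): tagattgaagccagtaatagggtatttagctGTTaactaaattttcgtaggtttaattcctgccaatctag

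These genes are 66 to 71 bases long, and the median insert of the libraries was 134 to 174 bases, so a typical fragment was longer than a mature tRNA, and whether a count came from a mature tRNA or from a longer precursor cannot be told apart. mt-Tp had 12.5, 11.6 and 13.4 TMM-scaled CPM in Mutant HFD, 8.05, 9.35, 8.001 and 8.06 in Mutant LPD and 9.296, 0.586, 3.42 and 7.39 in Mutant ND libraries. In Control libraries mt-Tp had 9.06, 10.3 and 12.3 TMM-scaled CPM on HFD, 6.89, 8.23, 5.29 and 7.31 on LPD and 2.23, 7.26 and 5.99 on ND. HFD and ND did not overlap for mt-Tp in either genotype, while LPD and ND overlapped in both. At the other end, mt-Tf, mt-Tk, mt-Tg, mt-Tr and mt-Tv had at most 6 counts each over all 21 libraries, which is 5 of the 20 tRNA genes. In the test across all genes, 25 mt- genes passed the filter on low counts, namely all 13 protein genes, both rRNA genes and 10 of the 20 tRNA genes.

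In that test, a count model for 23630 genes (edgeR's quasi-likelihood test with Benjamini-Hochberg adjustment, threshold 0.05), several mitochondrially encoded RNAs were higher on HFD or LPD than on ND, and none was called lower. In Mutant libraries 5 of the 25 rose on HFD, at a background of 0.961% of all genes called higher, 1.9% lower and 2.86% in either direction. Besides mt-Tl1 they were mt-Nd2 (log2 fold change 1.38, SE 0.31, adjusted p = 0.0247), mt-Nd5 (log2 fold change 1.14, SE 0.29, adjusted p = 0.0416), mt-Nd6 (log2 fold change 1.12, SE 0.29, adjusted p = 0.0423) and mt-Rnr2 (log2 fold change 1.73, SE 0.46, adjusted p = 0.0468). mt-Tl1, a leucine tRNA gene, passed the filter on low counts only through HFD libraries, so its call for HFD over ND is a description and supports nothing, which leaves 4. It had few counts, 17, 3 and 6 in the Mutant HFD libraries (26 in all) and 1, 0, 0 and 0 in the Mutant ND libraries (1 in all). The Mutant LPD libraries had 2, 5, 7 and 4 counts, and the Control libraries 10, 14 and 10 on HFD, 3, 5, 3 and 8 on LPD and 1, 3 and 4 on ND. As shares of all counts, Mutant HFD and Mutant ND differ 26.7-fold, with an exact 95% interval of 4.39 to 1095 that covers counting error only. The fitted log2 fold change of mt-Tl1, which depends on the prior count, was 3.99 (SE 0.91, adjusted p = 0.02496).

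In Mutant libraries on LPD 4 of the 25 rose over ND, at a background of 0.41% called higher, 0.643% lower and 1.05% in either direction. These were mt-Rnr2 (log2 fold change 2.24, SE 0.44, adjusted p = 0.0312), mt-Nd6 (log2 fold change 1.34, SE 0.27, adjusted p = 0.0321), mt-Nd2 (log2 fold change 1.30, SE 0.29, adjusted p = 0.0398) and mt-Nd5 (log2 fold change 1.22, SE 0.28, adjusted p = 0.0398). In Control libraries on HFD 3 of the 25 rose over ND, at a background of 3.1% called higher and 3.91% in either direction. These were mt-Nd2 (log2 fold change 1.27, SE 0.34, adjusted p = 0.0391), mt-Rnr2 (log2 fold change 1.92, SE 0.50, adjusted p = 0.0393) and mt-Nd6 (log2 fold change 1.15, SE 0.31, adjusted p = 0.0425). With LPD over ND in Control, 0 of the 25 passed, as did 0.0% of all genes, 0 mt- genes had an unadjusted p under 0.05, DESeq2 called 0, and the smallest adjusted p was that of mt-Nd5 (log2 fold change 0.49, SE 0.30, adjusted p = 0.8496).

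**Figure D4:**
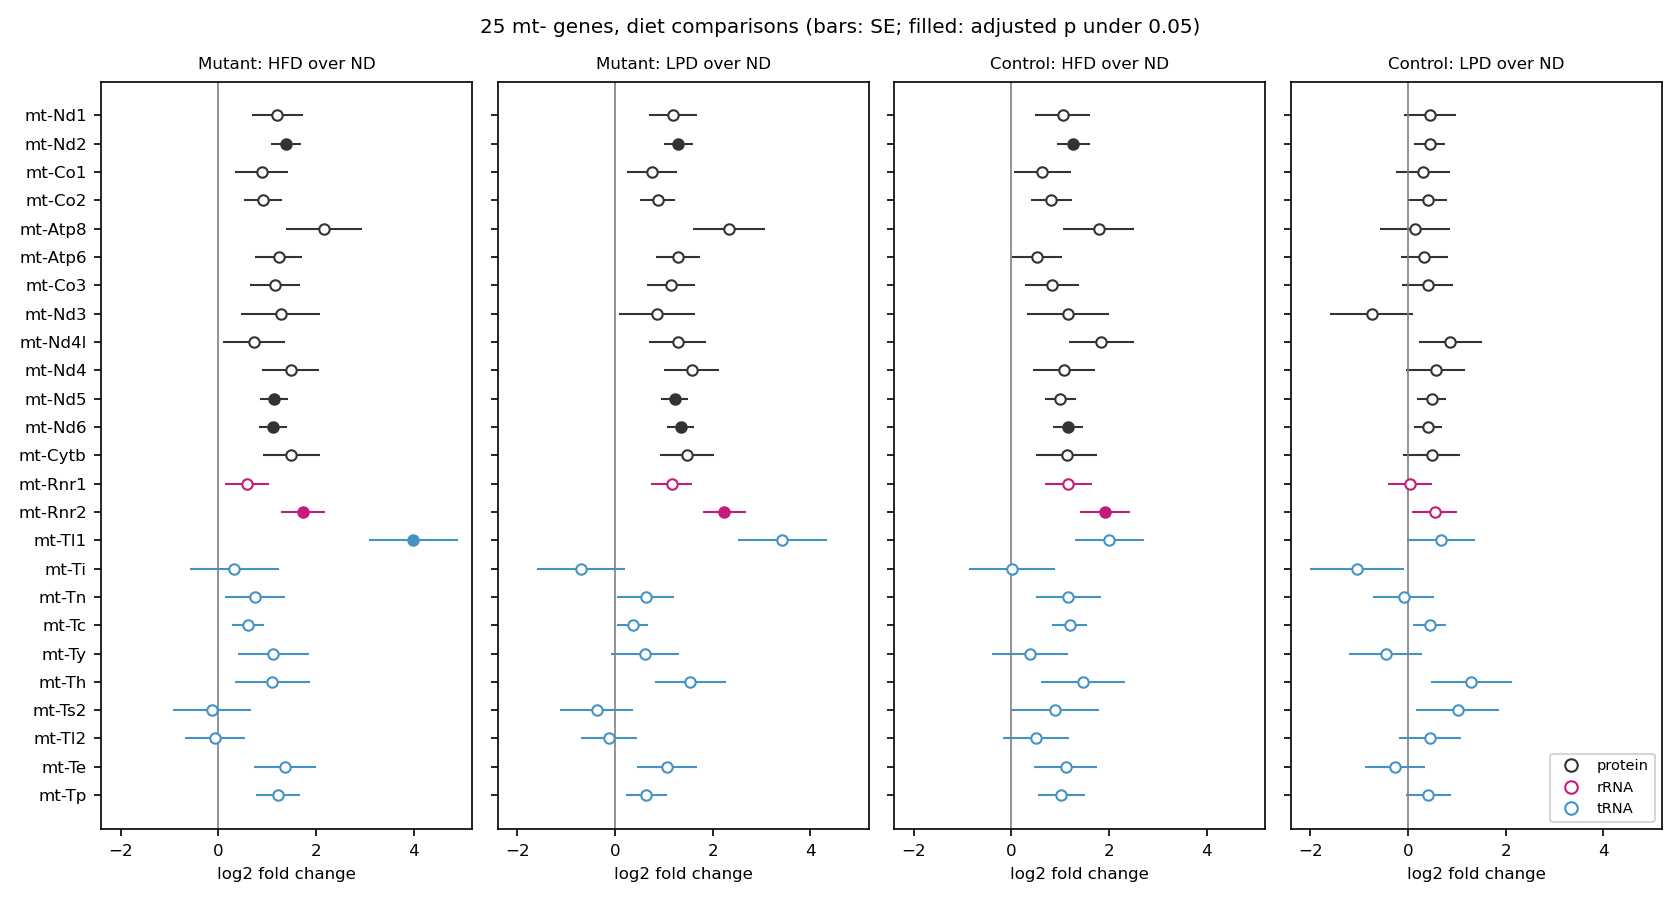
Log2 fold change of HFD or LPD over ND for the 25 tested mt- genes in Mutant and Control libraries, with SE as bars, filled points for an adjusted p under 0.05, and colour for the class. The protein genes lie right of 0 in the first 3 panels, and mt-Rnr2 lies farther right than mt-Rnr1 in each panel.

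The direction was shared by most members, which is a description only: mt-Tl1, mt-Atp8, mt-Nd3 and mt-Nd4l reached the filter's minimum in no ND library, so they had to be higher elsewhere. Of the 25, 23 had a fold change above 0 in Mutant HFD over ND (median log2 fold change 1.14), 22 in Mutant LPD over ND (median 1.16), 25 in Control HFD over ND (median 1.11) and 20 in Control LPD over ND (median 0.42). Over all tested genes the medians of these comparisons ran from -0.01 to 0.06. The abundant mt-Co1 did not pass, with log2 fold changes of 0.89 (SE 0.54) in Mutant HFD, 0.76 (SE 0.51) in Mutant LPD and 0.63 (SE 0.59) in Control HFD, each over ND. The tRNA genes were the most mixed class, with medians of 0.93 in Mutant HFD, 0.62 in Mutant LPD and 1.06 in Control HFD over ND, while the protein genes had medians of 1.21, 1.28 and 1.08 in those comparisons. The levels of 17, 14 and 16 of the 25 did not overlap between the groups in these 3 comparisons, against 19.2%, 11.8% and 31.4% of all genes. These numbers include mt-Tl1 and mt-Atp8 in all 3, mt-Nd3 in Mutant HFD, and mt-Nd4l in Mutant LPD and Control HFD. They are thus a description only, and members can move together with the same ND libraries. For LPD over ND in Control this was so for 0 of the 25, against 4.41% of all genes.

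These calls stood close to the threshold. Without the 3 ND libraries of over 70% duplicates the counts were 0 in Mutant HFD, 0 in Mutant LPD and 1 in Control HFD over ND, with medians of the 25 log2 fold changes of 0.73, 0.67 and 0.74. With the percent of duplicates as a covariate, or with a term that separates libraries numbered 25 and up, all 3 counts were 0, and the medians were 0.71, 0.45 and 0.66 with the first and 0.76, 0.77 and 0.69 with the second. Leaving out Mutant ND 1 gave 7, 7 and 3, leaving out Mutant ND 2 gave 1, 0 and 9, leaving out Mutant ND 3 gave 0, 0 and 1, leaving out any 1 Mutant HFD library gave 0, 2 and at most 1, and leaving out any 1 Control HFD library gave 2, 2 and 0. Leaving out any 1 Control ND library gave 3 to 5, 4 and 0, any 1 Mutant LPD library 2 to 3, 0 to 1 and 0 to 2, Control LPD 2 gave 4, 2 and 3, and Control LPD 3 gave 2, 2 and 3. In these 3 comparisons the acinar marker sums, in CPM rather than TMM-scaled CPM, were higher than on ND without overlap. The mesenchymal sums were mostly lower, as given above. Of 8 acinar markers, 0 were called in Mutant HFD and 0 in Mutant LPD over ND (median log2 fold changes 0.66 and 0.46). In Control HFD over ND 7 were called higher (median 1.72). The part of these markers in the differences of mt- genes was not tested.

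Between genotypes, no mt- gene passed on any diet. On HFD 0 of the 25 passed, at a background of 5.78% of all genes called in either direction (5.64% lower), and DESeq2 also called 0. An unadjusted p under 0.05 was reached by 0, and the smallest was that of mt-Rnr2, lower in Mutant (log2 fold change -0.93, SE 0.49, adjusted p = 0.435). On LPD 0 of the 25 passed, at a background of 15.6% (10.4% lower), with 0 by DESeq2, 2 with the replicate block and 2 at an unadjusted p under 0.05, and mt-Rnr2 again had the smallest p (log2 fold change 0.95, SE 0.43, adjusted p = 0.154). All 25 log2 fold changes were above 0 on LPD under this scaling, with a median of 0.56. Over all genes 52.1% were above 0, with a median of 0.02. Of the 25, 24 were above 0 with DESeq2 size factors or with unscaled totals. With the percent of duplicates as a covariate 22 were so, with a median of 0.36. Members can move together with the same libraries, so these numbers are a description only. On ND 0 of the 25 passed, at a background of 27%, with 0 by DESeq2 and 1 at an unadjusted p under 0.05. That 1 was mt-Tl1 (log2 fold change -2.56, SE 1.01, adjusted p = 0.0654), with 1 count in Mutant ND and 8 counts in Control ND libraries, a ratio of shares of 0.0959 with an exact 95% interval of 0.00216 to 0.715 for counting error only.

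**Figure D5:**
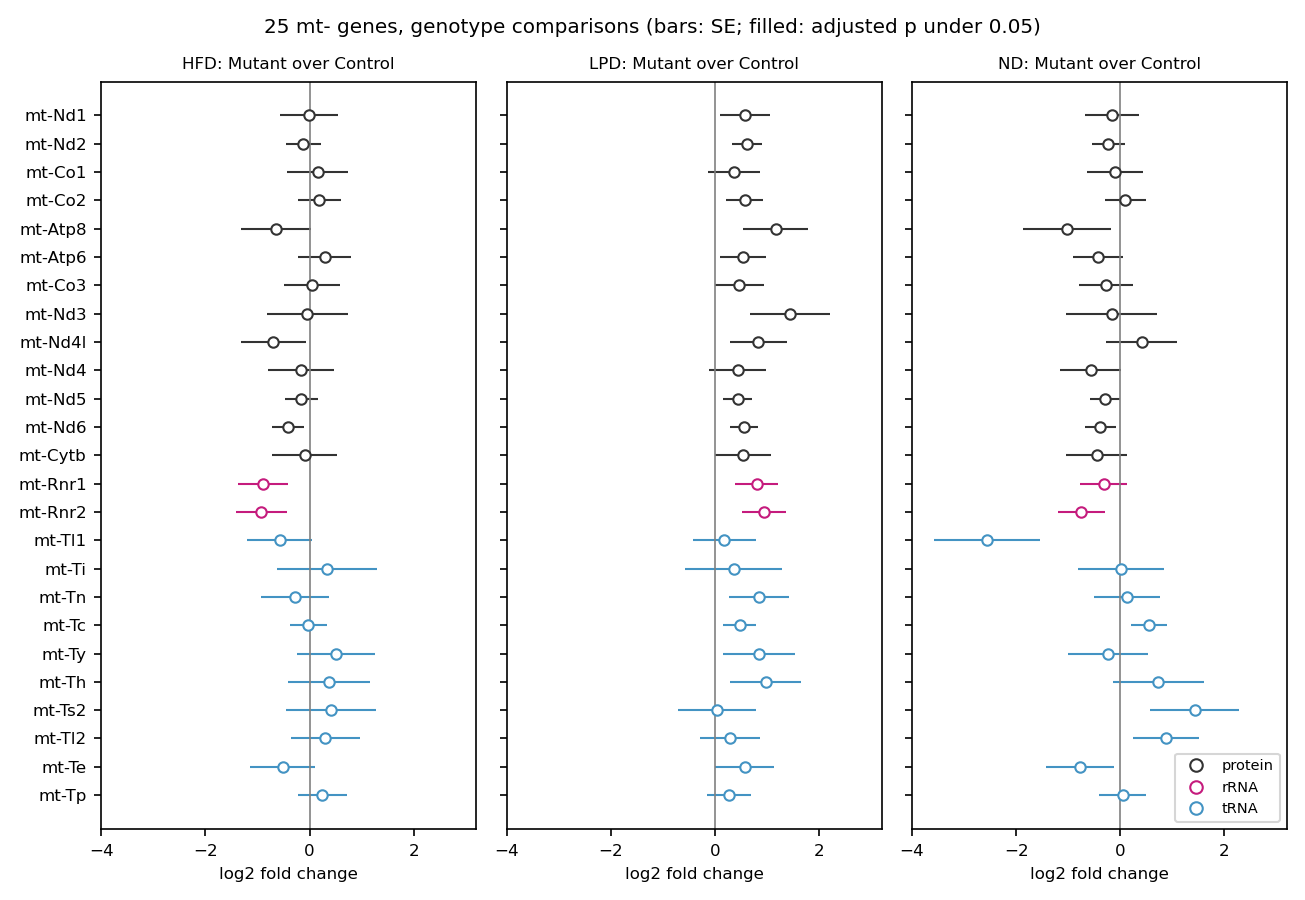
Log2 fold change of Mutant over Control for the 25 tested mt- genes on HFD, LPD and ND, with SE as bars and colour for the class. No point is filled, since no adjusted p was under 0.05, and all 25 points lie right of 0 on LPD.

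Leaving out Control LPD 4, whose protein-gene share of 0.783% was the highest of its group, gave 4 mt- genes higher in Mutant LPD than in Control LPD. Without the 3 ND libraries of over 70% duplicates, which are not in these groups but share the model's estimate of the spread, the count was 3. The differences in the genotype effect between diets were tested directly. For HFD minus ND 0 of the 25 passed (smallest adjusted p = 0.737, mt-Tl1), with 0 at an unadjusted p under 0.05 and 0 by DESeq2. For LPD minus ND 0 passed (smallest adjusted p = 0.832, mt-Rnr2, log2 difference 1.69, SE 0.62), with 4 at an unadjusted p under 0.05 and 0 by DESeq2. The background of both was 0.0%. TMM-scaled levels did not overlap between genotypes for 1 of the 25 on ND, 2 on HFD and 1 on LPD. The shares of all genes were 26.6%, 35.8% and 28.3%. The 2 on HFD were mt-Co1, higher in Mutant, and mt-Rnr2, lower, and the 1 on LPD was mt-Co1, higher in Mutant.

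The make-up of the protein-gene counts differed most in 1 library, Mutant ND 2. Complex I genes made up 44.2, 43.7 and 45.2% of the protein-gene counts in Mutant HFD, 46.6, 44.9, 47.1 and 47.8% in Mutant LPD and 39.7, 77.3, 39.5 and 39.8% in Mutant ND libraries. In Control libraries complex I genes made up 49.7, 45.9 and 47.8% on HFD, 41.98, 39.5, 45.8 and 50.2% on LPD and 44.9, 42.4 and 42.7% on ND. In Mutant ND 2 complex I took 77.3%, against 39.5% to 50.2% in the other 20 libraries, with 5.19% for complex III and 17.5% for complex IV. In that library mt-Nd5 alone held 42.2% and mt-Co1 17.4% of the protein-gene counts.

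Of 35 tests of composition (complexes I, III, IV, V and mt-Nd6 in 7 comparisons) 0 passed after adjustment over all 35 with the exact permutation test, and the smallest adjusted p was 0.318. Most of the groups that did not overlap involved HFD. Mutant against Control on HFD and HFD over ND in Control had 3 libraries against 3, where groups separate most easily. There the smallest exact permutation p possible is 0.1, against 0.0571 or 0.0286 in the other comparisons. The complex shares of a library add up to its whole, so they are not independent. The complex I share was 44.4% ± 0.7695 in Mutant HFD and 47.8% ± 1.92 in Control HFD (SD, n = 3 each, exact permutation p = 0.1, the smallest possible), and Control ND had 43.3% ± 1.34 (n = 3). The complex IV share was 33.7% ± 3.08 in Control HFD and 40.8% ± 0.584 in Control ND. The complex III share, which is mt-Cytb alone, was 17.6% ± 0.911 in Mutant HFD and 17.8% ± 0.769 in Mutant LPD, against 11.8% ± 4.46 in Mutant ND, where the 3 libraries other than Mutant ND 2 had 13.6% to 14.8%. Control HFD had 18.4% ± 1.16 and Control ND 15.8% ± 0.867 for complex III, and the Mutant ND libraries lay below those of Control ND. mt-Nd6 made up 2.22% ± 0.218 of protein-gene counts in Mutant HFD and 2.93% ± 0.323 in Control HFD. The complex V tests, which rest on mt-Atp6 and mt-Atp8, are among the 35 and their values are not given here, because mt-Atp6 shares nearly all its sequence with a copy.

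The counts of rRNA per 100 counts of protein genes are given as a description. They were 34.2, 22.4 and 35.01 in Mutant HFD, 47.5, 39.2, 60.5 and 32.1 in Mutant LPD and 19.9, 51.4, 22.9 and 18.3 in Mutant ND libraries. In Control libraries they were 78.9, 36.8 and 54.4 on HFD, 24.7, 22.4, 34.9 and 41.4 on LPD and 30.5, 28.2 and 31.3 on ND. The 3 Control HFD libraries all exceeded the Control ND libraries, and Mutant ND 2 again differed from its group.

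Nuclear genes that serve the mitochondrial genome were counted for comparison. Of 106 tested nuclear genes in 6 lists, 47 rose in Mutant against Control on ND (median log2 fold change 0.45, against 0.01 over all genes), at a background of 13.7% called higher, and 0 fell. On LPD 11 rose and 0 fell (median 0.30, background 5.22%), and on HFD 0 passed (median 0.25, background 0.14%). The nuclear lists were counted in the main model only, and other settings were not run for them. The ND groups include the 3 libraries of over 70% duplicates. Unscaled totals shifted the median of all genes by -0.41 for Mutant over Control on ND. In the sums given above, acinar markers were higher in Mutant than in Control libraries. The groups did not overlap on HFD and LPD but overlapped on ND. Of 8 single acinar genes, 0 were called on HFD, 7 higher on LPD and 7 higher on ND. Endocrine markers were lower, and the part of cell make-up in the counts of nuclear genes was not tested.

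On ND, 1 of 10 genes of mitochondrial transcription rose in Mutant libraries, a share below the 13.7% of all genes called higher. It was Tfam, which packages and activates the mitochondrial genome (log2 fold change 0.85, SE 0.15, adjusted p = 0.00018). Of 9 genes of mitochondrial DNA upkeep 5 rose, among them Mgme1 by 0.92 (SE 0.16, adjusted p = 0.000161), an exonuclease, Twnk by 0.72 (SE 0.16, adjusted p = 0.00193), the replicative helicase, and Polg by 0.66 (SE 0.17, adjusted p = 0.00754), the DNA polymerase. Of 18 genes of mitochondrial RNA processing 9 rose, among them Rexo2 by 0.87 (SE 0.15, adjusted p = 0.000156), which degrades short RNAs, Elac2 by 0.57 (SE 0.13, adjusted p = 0.002502), which cuts the 3′ ends of tRNAs, and Hsd17b10 by 0.84 (SE 0.20, adjusted p = 0.00304), a subunit of the nuclease of their 5′ ends. Of 17 mitochondrial tRNA synthetases 9 rose, with Yars2 by 1.39 (SE 0.27, adjusted p = 0.000553), Mars2 by 0.91 (SE 0.18, adjusted p = 0.000759) and Tars2 by 0.84 (SE 0.18, adjusted p = 0.00131) of smallest p. Of 44 nuclear respiratory subunits 20 rose, with Atp5b by 0.65 (SE 0.14, adjusted p = 0.00132) of ATP synthase and Sdhb by 0.78 (SE 0.17, adjusted p = 0.00166) and Sdhc by 0.66 (SE 0.16, adjusted p = 0.00364) of complex II of smallest p. Of 8 regulators of mitochondrial biogenesis 3 rose, namely Pprc1 by 1.04 (SE 0.19, adjusted p = 0.000402), Ppargc1b by 1.12 (SE 0.25, adjusted p = 0.00224) and Gabpa by 0.41 (SE 0.11, adjusted p = 0.0108).

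On LPD the genes higher in Mutant were 4 of RNA processing, 3 respiratory subunits, 2 biogenesis regulators, 1 synthetase, 1 of DNA upkeep and 0 of transcription. The processing genes of smallest p were Rexo2 by 0.62 (SE 0.13, adjusted p = 0.00221), Supv3l1 by 0.40 (SE 0.12, adjusted p = 0.0258), an RNA helicase, and Tbrg4 by 0.50 (SE 0.16, adjusted p = 0.0424). The respiratory subunits were Atp5b by 0.42 (SE 0.13, adjusted p = 0.0261), Sdhc by 0.44 (SE 0.14, adjusted p = 0.0424) and Atp5o by 0.56 (SE 0.19, adjusted p = 0.0488). The others were Ppargc1b by 0.81 (SE 0.23, adjusted p = 0.0173), Pprc1 by 0.60 (SE 0.17, adjusted p = 0.02202), Ears2 by 0.42 (SE 0.12, adjusted p = 0.0163) and Mgme1 by 0.53 (SE 0.14, adjusted p = 0.01198).

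With HFD over ND in Control, 9 of the 106 rose and 0 fell (median log2 fold change 0.31, background 3.1%). They were 3 of RNA processing (Hsd17b10 by 0.90 (SE 0.21, adjusted p = 0.0201), Supv3l1 by 0.58 (SE 0.14, adjusted p = 0.0231) and Rexo2 by 0.59 (SE 0.15, adjusted p = 0.0358)), 4 respiratory subunits (with Atp5c1 by 0.73 (SE 0.16, adjusted p = 0.0168), Atp5o by 0.82 (SE 0.22, adjusted p = 0.0411) and Atp5g3 by 0.53 (SE 0.15, adjusted p = 0.0435) of smallest p), the synthetase Mars2 by 0.68 (SE 0.19, adjusted p = 0.0463) and the regulator Ppargc1b by 0.94 (SE 0.27, adjusted p = 0.0486). In Mutant libraries 2 respiratory subunits rose with HFD over ND, Atp5c1 by 0.63 (SE 0.15, adjusted p = 0.0321) and Cox5b by 0.73 (SE 0.18, adjusted p = 0.0354), and the median of the 106 was 0.07 (background 0.961%). With LPD over ND 0 of the 106 passed in Mutant (median -0.07) and 0 in Control (median 0.15).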

How the data were processed

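RNA of eGFP-positive pancreatic cells was sequenced as strand-specific libraries after ribosomal RNA depletion of 50 ng RNA with an integrity number above 7.5, per the labels' protocols. The authors deposited a table of read counts per gene, a table of FPKM per gene and sequencing statistics that give duplicates as percent of reads. Cutadapt 2.10, STAR 2.7.8a, featureCounts 2.0.2 and the GRCm38.p6 build are named in the submitters' processing notes. The strand setting, and how reads with several matches and duplicates were counted: not given in the sources used here. All table columns used were matched to samples by name.

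From the counts, edgeR 4.0.16 (R 4.3.3) fitted 6 groups over 21 libraries with filterByExpr, TMM scaling and robust quasi-likelihood tests, with Benjamini-Hochberg adjustment over 23630 genes and a threshold of 0.05. SE is the absolute log2 fold change over the root of F. Class shares and compositions were tested with 2-sided exact permutation tests over libraries. DESeq2 1.42.0 and limma 3.58.1 on log2(FPKM + 1) and log2(FPKM + 0.1) were alternatives. The edgeR script was tested on simulated data. Windows of 30 bases of GENCODE vM21 transcripts were matched on either strand. Values in every library are given for the class sums, mt-Co1, mt-Nd1, mt-Cytb, mt-Atp6, mt-Nd6, both rRNA genes, the most counted tRNA gene and each member called in a comparison or, where none was, of smallest p. Nuclear genes named are up to 3 per list and comparison, by smallest p among those called. The members and lists were chosen with earlier results of these data known. Libraries held 17922240 to 44688814 counts, so the spread between libraries rather than counting error limits the abundant genes. Intervals cover counting error only.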

Additional observations from a re-analysis of the deposited data

Results flagged for a closer look

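In groups of 4 libraries, 1 library was compared with the other 3 for 57 group values. A gap this large is found by chance in about 1 in 20 groups. The values are not independent, since the complex and mt-Nd6 shares of a library have the same total. This rate is thus no test of the number found. There were 9 such gaps. Of these, 6 were Mutant ND 2, the library with 79.4% duplicates and 66.9% of its counts in Gm26917. Mutant ND 2 had 51.4 counts of rRNA genes per 100 counts of protein genes, and the other 3 Mutant ND libraries had 18.3 to 22.95. mt-Rnr1 stood at 89.02 TMM-scaled CPM there, against 49.5 to 55.4 in the other 3. In CPM without this scaling mt-Rnr1 was lowest there, 33.9 against 43.6 to 58.9. The TMM factor of Mutant ND 2 was 0.381. Complex I genes took 77.3% of its protein-gene counts, complex III 5.19%, complex IV 17.5% and mt-Nd6 alone 7.76%, where the other 3 libraries had 13.6% to 14.8% for complex III and 1.67% to 2.55% for mt-Nd6. Mutant LPD 2 had 9.35 TMM-scaled CPM of mt-Tp, against 8.001 to 8.06 in the other 3 Mutant LPD libraries, and a complex IV share of 37.9%, against 34.6% to 34.9%. mt-Tl1 had 0.0355 TMM-scaled CPM in Mutant ND 1, from 1 count, and 0 counts in the other 3 Mutant ND libraries, so any count there would have been flagged.

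The 3 libraries outside the groups also held mitochondrial RNA. Control ND 1 had 0.291% of its counts in the protein genes and 0.130% in the rRNA genes. The hypothalamic library titled Mutant Neuron 1 had 0.378% in protein genes and 0.0506% in rRNA genes, and Control Neuron 1 had 0.305% and 0.0286%. With 1 library each, these values have no replicate check.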

How the results depend on the processing

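The numbers of mt- genes called are given for HFD over ND in Mutant, LPD over ND in Mutant and HFD over ND in Control, where they were 5, 4 and 3. DESeq2 size factors, or leaving Gm26917 out, gave the same numbers. Unscaled totals, no filter on low counts, limma with a pseudocount of 1, Control ND 1 as a Control ND library, duplicates as a covariate and a term that separates libraries numbered 25 and up each gave 0, 0 and 0. Limma with 0.1 gave 1, 1 and 0, DESeq2 6, 7 and 5, fits of only the compared groups 0, 0 and 7, and omission of the 3 ND libraries of over 70% duplicates 0, 0 and 1. Leaving out 1 library gave 0 to 7, 0 to 7 and 0 to 9. For Mutant over Control on ND, 0 calls became 1 with no filter, with limma and a pseudocount of 1 or with Control ND 1 included, 2 with limma and 0.1, and 0 to 1 without 1 library. On LPD 0 calls became 3 without those 3 ND libraries and 0 to 4 without 1 library. Causes were not tested. On HFD, for LPD over ND in Control and for both differences between diets the number stayed 0 in every setting run.

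The tRNA share changed sign in some settings. The Mutant minus Control difference on ND (0.116 CPM) was -0.172 CPM with Control ND 1 included and ran from -4.23 to 4.40 CPM without 1 library. On HFD (-0.397 CPM) it was 0.327 CPM without Gm26917 in the total, 0.229 CPM with the mt- genes removed too, and -2.22 to 3.18 CPM without 1 library. Without the 3 ND libraries LPD minus ND was -0.811 CPM in Control and -0.972 CPM in Mutant, and without 1 library it ran from -0.811 to 6.51 CPM in Control. Protein and rRNA shares and the compositions named kept their direction in every setting run, but not their size. For LPD minus ND in Control, the protein-gene difference (0.127 percentage points) ran from 0.00446 to 0.202 without 1 library. The rRNA-gene difference there (0.0496) ran from 0.00381 to 0.0716. For HFD minus ND in Mutant the protein-gene difference (0.401) ran from 0.298 to 0.486. Unscaled totals shifted the all-gene median of log2 fold changes by -0.41 for Mutant over Control on ND, by -0.12 on HFD and on LPD, and by 0.23 and 0.29 for HFD and LPD over ND in Mutant.

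Replicate numbers did not visibly pair the libraries. Deviations from the group means over all tested genes were correlated between libraries of different groups. The 46 same-number pairs had correlations of -0.33 to 0.41 (median -0.01), 12 of them above 0.1. The 137 different-number pairs had -0.33 to 0.34 (median -0.0026), 37 of them above 0.1. With the replicate block the numbers called were 5, 4 and 4, and 2 for Mutant over Control on LPD, and the paired tRNA difference on ND was -3.04 CPM. Low counts limit mt-Tl1 and most tRNA genes. Sequence shared with annotated transcripts limits 5 protein genes over nearly their whole length, and mt-Co1 and mt-Nd4 over 64.8% and 62.8% of their windows. Copies outside annotated transcripts were not searched for.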
